A study of Mus musculus with 13 samples.

Results

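Cirbp and Rbm3 encode the cold-inducible RNA-binding proteins. They were taken by gene symbol from the tables of estimated counts and TPM (an abundance scaled for transcript length and library), and are 2 of 46679 gene IDs and 2 of 21581 protein-coding genes measured in 13 mouse libraries. Cirbp is ENSMUSG00000045193 and lies on the plus strand at chr10:80165985-80172786 of GRCm38. Rbm3 is ENSMUSG00000031167 and lies on the minus strand at chrX:8138975-8145880.

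All mice were female FVB mice aged 10 weeks, and the mouse was the replicate. Mammary tumors came from 3 mice that had been given 250000 Met1 cells, a mouse line of mammary tumor origin, in PBS, into an inguinal mammary fat pad at 8 weeks of age, 2 weeks before collection. Tumor-bearing lungs came from 4 such mice, 3 of which also gave a tumor, and normal lungs from 4 mice labelled as having no tumor. Whether these received PBS is not given in the sources used here. Each library was made from 20 mg of snap-frozen tissue and depleted of ribosomal RNA, and the purpose stated by the series is the effect of a distal mammary tumor on lung gene expression. Preparation batch 1 held 3 tumor-bearing and 2 normal lungs, and batch 2 held the 3 tumors, 1 tumor-bearing lung and 4 normal lungs. Normal mice 6886 and 6888 have a library in each batch. The Met1 tumors are grafts of a cell line in syngeneic mice and hold host cells beside the tumor cells.

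Cirbp and Rbm3 are small proteins with an RNA recognition motif at the amino end and a glycine-rich carboxyl end, and both transcripts are known to rise in mammalian cells under mild cooling and to fall under warming. Cirbp is known to bind clock transcripts in cultured mouse cells and to act as a signal of tissue damage once outside the cell, while Rbm3 is known to promote translation and the survival of cooled cells and neurons. Heat shock chaperones, which help proteins fold and are driven by the transcription factor Hsf1, are known to move the opposite way with temperature.

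The starts of both coding sequences are shown because they carry the shared RNA recognition motif and decide whether short reads can tell the genes apart. The lines give the first 270 coding bases, or 90 codons, of GENCODE M21 transcripts Cirbp-202 and Rbm3-204, 5′ to 3′. Capitals mark bases identical in both.
Cirbp: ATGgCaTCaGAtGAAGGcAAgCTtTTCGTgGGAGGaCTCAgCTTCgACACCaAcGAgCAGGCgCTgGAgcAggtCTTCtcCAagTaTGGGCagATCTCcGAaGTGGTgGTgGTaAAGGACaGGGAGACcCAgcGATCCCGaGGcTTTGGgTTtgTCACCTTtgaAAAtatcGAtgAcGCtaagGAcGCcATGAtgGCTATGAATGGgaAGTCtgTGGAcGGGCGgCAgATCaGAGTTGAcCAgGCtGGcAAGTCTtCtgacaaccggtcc
Rbm3: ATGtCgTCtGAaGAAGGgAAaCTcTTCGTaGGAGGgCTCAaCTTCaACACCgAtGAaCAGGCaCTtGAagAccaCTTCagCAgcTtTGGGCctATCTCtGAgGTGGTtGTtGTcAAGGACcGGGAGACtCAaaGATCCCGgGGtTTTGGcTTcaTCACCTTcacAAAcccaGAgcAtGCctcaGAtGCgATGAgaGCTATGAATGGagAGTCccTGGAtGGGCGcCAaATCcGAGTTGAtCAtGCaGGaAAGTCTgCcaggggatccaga
On GRCm38 these stretches span chr10:80169814-80170261 on the plus strand for Cirbp and chrX:8143888-8145057 on the minus strand for Rbm3, introns included. The aligned stretches shared 184 of 270 bases (68.1%) and encoded the same residue at 65 of 90 codons (72.2%). The mismatches were spread along the alignment, so the longest exact run common to any transcript of Cirbp and any of Rbm3 was 11 bases, against reads of 75 bases. Reads of the 2 genes were therefore separable. No 75-base window of Cirbp was found in another gene, whereas 396 of 5199 windows of Rbm3 (7.62%) were. Of these, 240 lay in the processed pseudogene Rbm3-ps and 199 in the processed pseudogene Gm10156. Another 1, Gm48583, shared 146 windows but had no values in this series and could not be added below. The windows were pooled over all 11 annotated transcripts of Rbm3, 2 of them with retained introns. The share for its coding transcripts alone was not computed and may be larger. Rbm3-ps had 5.86 to 18.2% and Gm10156 11.1 to 23.6% of the estimated counts of Rbm3, so the split of reads among these copies is uncertain. The antisense gene Rbm3os overlaps the 5′ end of Rbm3 and had 0 to 21 counts in every library. With the counts of the pseudogenes added to Rbm3, an alternative added after seeing the data, its log2 fold changes were 2.17 for tumors against tumor-bearing lungs, 2.39 for tumors against normal lungs and 0.30 for tumor-bearing against normal lungs. The values without them were 2.13, 2.37 and 0.31.

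Libraries held 8321037 to 13982903 estimated counts, and protein-coding genes took 45.6 to 69.6% of them. The signal recognition particle RNA Rn7s1 took 5.55 to 37.8%. The gene models Gm12895, Gm12896 and Gm26917 together held 21.6 to 32.3% of counts in batch 1 libraries of tumor-bearing lung, beside 9.29 to 9.78% for normal lung there. In batch 2 they held 3.97% for tumor-bearing and 3.45 to 3.96% for normal lung. Deposited TPM are shares of all of these RNAs and move with them. Levels are therefore given as CPM, counts scaled to library size with TMM factors, and, where the 2 genes or their ranks are compared, as TPM ratios or as TPM rescaled over protein-coding genes to the same total (coding TPM). Summed CPM of 9 alveolar epithelial markers were 4.60 to 21.3 in tumors and 7003 to 15037 in lungs, and those of 9 mammary epithelial markers were 1047 to 1547 in tumors and 196 to 317 in lungs, as the labels say.

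Rbm3 was the more abundant gene in every tumor. It stood at 324, 265 and 230 CPM in the tumors of mice 6877, 6880 and 6881. In tumor-bearing lungs it stood at 51.1, 54.4, 54.8 and 52.3 CPM in mice 6877, 6879, 6880 and 6881. In normal lungs it stood at 37.5 and 46.7 CPM in the batch 1 and batch 2 libraries of mouse 6886, 37.8 and 58.8 in those of mouse 6888, and 58.0 and 50.6 in mice 6887 and 6893. All tumors lay far above all lungs, and the 2 groups of lungs overlapped. The share of all genes that separate tumors from lungs in this way was not computed. Between tumors and normal lung 52.4% of tested genes were called in either direction, so the separation by itself does not mark Rbm3 out. In coding TPM Rbm3 ranked 275th to 335th among protein-coding genes in the tumors, 1160th to 1282nd in tumor-bearing lungs and 1130th to 2014th in normal lungs.

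Cirbp ran the other way. It stood at 12.7, 10.5 and 13.1 CPM in the tumors of mice 6877, 6880 and 6881. In tumor-bearing lungs it stood at 47.7, 58.0, 34.9 and 36.2 CPM in mice 6877, 6879, 6880 and 6881. In normal lungs it stood at 30.4 and 25.2 CPM in the batch 1 and batch 2 libraries of mouse 6886, 16.3 and 22.9 in those of mouse 6888, and 27.9 and 19.5 in mice 6887 and 6893. The order was tumor-bearing lung, normal lung, tumor, and no library of one group overlapped another group in CPM. The share of all genes with this order and no overlap was not computed, so the order by itself does not mark Cirbp out. In coding TPM Cirbp ranked 4347th to 5207th in tumors, 896th to 1608th in tumor-bearing lungs and 2052nd to 3773rd in normal lungs.

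**Figure D1:**
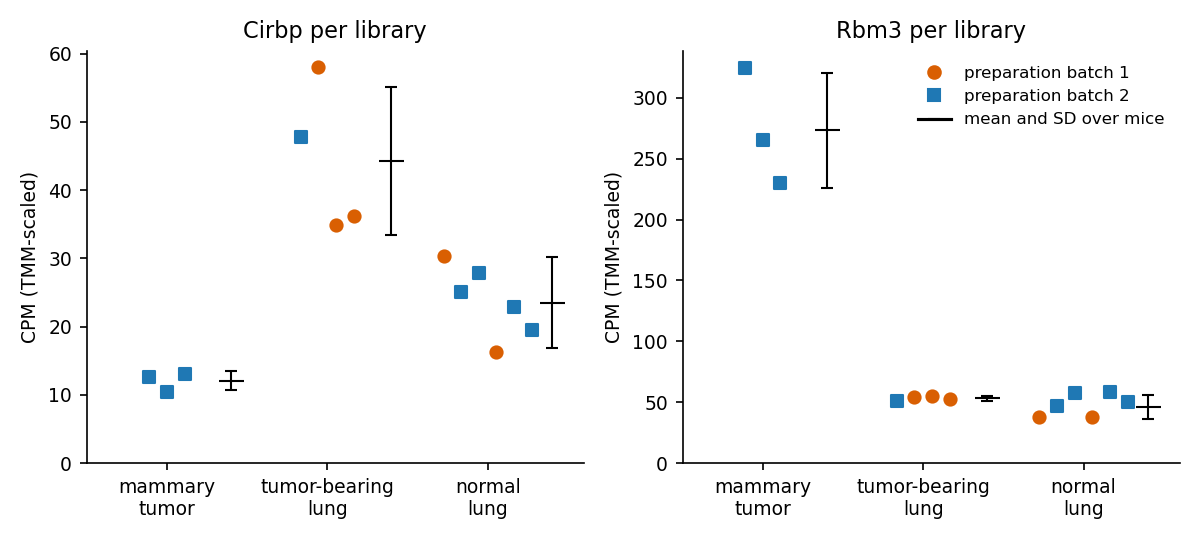
Each point is a library, with CPM on the vertical axis and the groups on the horizontal axis. Circles are preparation batch 1 and squares batch 2, and bars give mean and SD over mice, with the batch 1 library of normal mice 6886 and 6888. Cirbp is lowest in the 3 tumors (10.5 to 13.1 CPM) and highest in the 4 tumor-bearing lungs (34.9 to 58.0 CPM), and Rbm3 is at 230 to 324 CPM in the tumors and below 60 CPM in every lung.

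Set against normal lung within batch 2, tumors had more Rbm3 and less Cirbp. Rbm3 averaged 273 ± 47.4 CPM in tumors (SD, n = 3) and 53.5 ± 5.86 CPM in normal lungs (SD, n = 4), and rose by a log2 fold change of 2.37 (SE 0.16, edgeR quasi-likelihood test with Benjamini-Hochberg adjustment, adjusted p = 4.0e-06), which is 5.17-fold with a 95% interval of 4.01 to 6.66. Cirbp averaged 12.1 ± 1.42 CPM in tumors and 23.9 ± 3.53 CPM in normal lungs, and fell to 0.513 of the normal lung level (95% interval 0.389 to 0.677, log2 fold change −0.96, SE 0.18, adjusted p = 0.00155). These tissues differed in most of their transcripts, with 52.4% of 20432 genes past the adjusted threshold of 0.05, 27.2% higher and 25.2% lower, so that a call by itself marks neither gene out. By size, 6.45% of tested genes had a larger log2 fold change than Rbm3 and 25.8% a lower one than Cirbp. As in any bulk tissue, more cells that express a gene and more RNA of it per cell cannot be told apart.

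Against tumor-bearing lung the fitted difference of Cirbp was larger, though the 95% intervals of the 2 comparisons overlapped and were not tested against each other. Cirbp averaged 12.1 ± 1.42 CPM in tumors (SD, n = 3) and 44.2 ± 10.9 CPM in tumor-bearing lungs (SD, n = 4), and fell to 0.261 of the lung level (95% interval 0.162 to 0.419, log2 fold change −1.94, SE 0.31, edgeR adjusted p = 0.00037). Rbm3 averaged 273 ± 47.4 CPM in tumors and 53.2 ± 1.74 CPM in tumor-bearing lungs, and rose 4.39-fold (95% interval 3.10 to 6.21, log2 fold change 2.13, SE 0.23, adjusted p = 1.8e-05). In this comparison 46.3% of 18297 genes passed the threshold, 22.6% higher and 23.7% lower. By size, 14.2% of tested genes had a lower log2 fold change than Cirbp and 7.31% a higher one than Rbm3. Within the 3 mice that gave both tissues, Cirbp was 12.7 CPM in the tumor and 47.7 in the lung of mouse 6877, 10.5 and 34.9 in mouse 6880, and 13.1 and 36.2 in mouse 6881. Each of these mice showed both differences, and the tumors of 6880 and 6881 were of another batch than their lungs. The batch 2 libraries alone gave −1.94 for Cirbp and 2.46 for Rbm3, but hold lung 6877 as the only tumor-bearing lung, so that the spread of tumor-bearing lungs was not measured there. On the TPM scale the difference of Cirbp was smaller: limma on log2(TPM + 1) gave −0.9996 (adjusted p = 0.0267), and the call was lost without a filter (adjusted p = 0.0603). Both tumor comparisons use the same 3 tumors.

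The ratio of the 2 transcripts, a quantity that no library scaling can move, separated tumors from lungs. This restates the opposite differences of the 2 genes given above and is no separate support for them. The share of gene pairs separated in this way was not computed. The TPM of Rbm3 was 21.4, 21.3 and 14.8 times that of Cirbp in the tumors of mice 6877, 6880 and 6881. The ratio was 0.899, 0.787, 1.32 and 1.21 in the tumor-bearing lungs of mice 6877, 6879, 6880 and 6881. In normal lungs it was 1.03 and 1.56 in the 2 libraries of mouse 6886, 1.94 and 2.15 in those of mouse 6888, and 1.75 and 2.17 in mice 6887 and 6893. Cirbp thus equalled or exceeded Rbm3 per transcript length in 2 of 4 tumor-bearing lungs and in none of the 6 normal lung libraries or 3 tumors. Within batch 1 the ratios of tumor-bearing lungs (0.787 to 1.32) and normal lungs (1.03 and 1.94) overlapped, and within batch 2 the ratio of 0.899 lay under all 4 normal lungs (1.56 to 2.17).

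**Figure D2:**
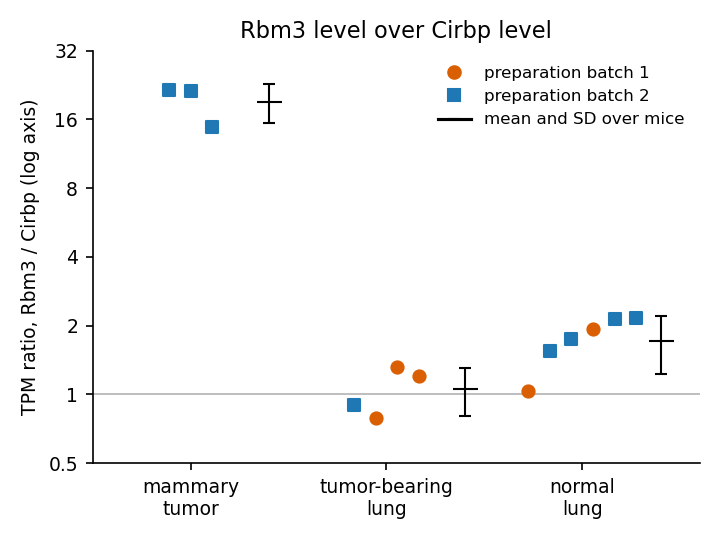
Each point is a library, with the ratio of Rbm3 TPM to Cirbp TPM on a log axis, circles for preparation batch 1 and squares for batch 2, and bars for mean and SD over mice. The tumors sit at 14.8 to 21.4 and every lung between 0.787 and 2.17.

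The comparison that the series was made for, tumor-bearing against normal lung, gave a difference in Cirbp that missed the adjusted threshold. Cirbp averaged 44.2 ± 10.9 CPM in tumor-bearing lungs and 23.5 ± 6.67 CPM in normal lungs (SD, n = 4 each). Its fitted log2 fold change was 0.93 (SE 0.25), or 1.9-fold with a 95% interval of 1.29 to 2.82, with adjusted p = 0.203 in the edgeR fit across all genes. By unadjusted p it ranked 384th of 16727. All 4 tumor-bearing lungs lay above all normal lung libraries of both batches, a separation shown in the same direction by 2.65% of 16727 genes over the 8 lungs tested. Only 0.0359% of genes passed the threshold, and 3.01% had a higher log2 fold change than Cirbp. The call depended on the tool. DESeq2 gave 0.91 with adjusted p = 0.0261, and edgeR without a filter on low counts gave 0.90 with adjusted p = 0.0331, in fits that called 445 and 275 genes, against 6 in the filtered fit. Over all 24 alternatives the adjusted p was 0.0261 to 0.662. In deposited TPM the groups overlapped, at 3.15 to 4.54 TPM in tumor-bearing and 2.25 to 5.27 TPM in normal lungs. Limma on log2(TPM + 1) gave 0.19 for Cirbp. That was 0.72 above the median of the 7454 genes that passed a filter on TPM (−0.53), and 0.23 above the median of 32543 genes without the filter (−0.05).

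Cirbp differed by a similar amount in each batch, with a log2 fold change of 0.90 (SE 0.34) in batch 1, 3 tumor-bearing against 2 normal lungs, and 1.00 in batch 2, where tumor-bearing lung 6877 alone stood against 4 normal lungs and the spread of tumor-bearing lungs was not measured. Normal mice 6886 and 6888 enter both values. Normal mice 6886 and 6888, prepared in both batches, give the size of a preparation difference: Cirbp of batch 2 over batch 1 was −0.27 on the log2 scale in mouse 6886 and 0.49 in mouse 6888, where the median absolute difference over genes was 0.39 and 0.43. Leaving out each lung in turn gave 0.74 (without normal lung 6888) to 1.21 (without normal lung 6886).

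Markers of several cell types leaned to higher or lower values in tumor-bearing lungs, and none passed the adjusted threshold in edgeR. Neutrophil markers summed to 156, 143, 65.4 and 61.0 CPM in tumor-bearing lungs of mice 6877, 6879, 6880 and 6881, and to 15.1 to 77.7 CPM in normal lungs, with Ly6g at 0 counts in all tumor-bearing lungs. All 5 tested members of 8 had positive log2 fold changes with an unadjusted p under 0.05, and none passed the adjusted threshold in edgeR, against 3 in DESeq2. Over all genes, beside which the counts below also stand, 6.13% were higher and 7.87% lower at that p in edgeR. DESeq2 called 134 of 11623 genes higher and 311 lower. Heart muscle markers summed to 886 CPM in tumor-bearing lung 6879, the library with the most Cirbp, and to 25.9 to 39.2 CPM in the other tumor-bearing lungs, against 571 CPM in the batch 2 library of normal lung 6886 and 20.8 to 41.8 CPM in the other normal lungs. Without lung 6879 the log2 fold change of Cirbp was 0.76 (adjusted p = 0.300). Log2 fold changes were positive for 6 of 6 T cell and 5 of 5 B cell markers and negative for 5 of 5 red cell and 8 of 9 alveolar epithelial markers, and none of these passed the adjusted threshold in edgeR. At an unadjusted p under 0.05 there were 1 B cell, 1 red cell and 2 alveolar markers and no T cell marker, and DESeq2 called 1 B cell and 1 alveolar marker. Of 6 endothelial markers, 4 were negative, 2 of them at an unadjusted p under 0.05 in edgeR, and 2 were positive. Summed T cell markers were 36.8 to 42.4 CPM in tumor-bearing and 21.2 to 52.8 CPM in normal lungs, and red cell markers 4119 to 17613 CPM in tumor-bearing and 6887 to 27981 CPM in normal lungs. The part of these cells in the difference of Cirbp was not tested.

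For Rbm3 the lung groups overlapped. It averaged 53.2 ± 1.74 CPM in tumor-bearing lungs and 46.0 ± 10.1 CPM in normal lungs (SD, n = 4 each). The fitted log2 value was 0.31 (SE 0.15, 95% interval −0.03 to 0.65, edgeR adjusted p = 0.401). The values differed between the batches. In batch 1 Rbm3 was 54.4, 54.8 and 52.3 CPM in tumor-bearing lungs against 37.5 and 37.8 CPM in normal lungs, and the log2 value was 0.54 (SE 0.15, adjusted p = 0.147). In batch 2 it was 51.1 CPM in tumor-bearing lung 6877 against 46.7 to 58.8 CPM in normal lungs, and the log2 value was −0.06, with that 1 lung as the whole tumor-bearing arm. Both of these normal mice had more Rbm3 in batch 2, by 0.31 in mouse 6886 and 0.63 in mouse 6888 on the log2 scale. Without tumor-bearing lung 6877 the log2 fold change was 0.53 (adjusted p = 0.0986).

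**Figure D3:**
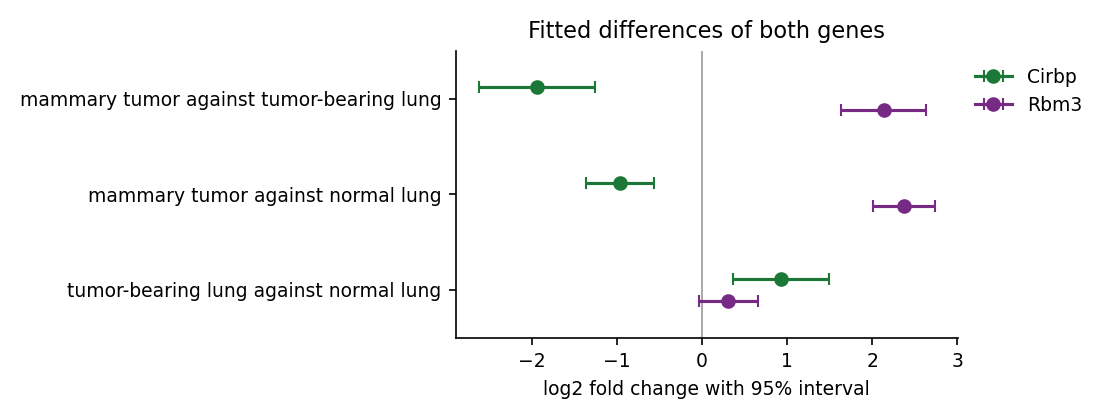
Points are the fitted log2 fold changes of Cirbp (green) and Rbm3 (purple) in the 3 comparisons, first-named group over second, and bars are 95% intervals. In both tumor comparisons the intervals of the 2 genes lie on opposite sides of 0, and in tumor-bearing against normal lung the interval of Cirbp lies above 0 and that of Rbm3 includes 0.

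Heat shock chaperones had lower values in tumor-bearing lungs. Of 17 genes, 16 had negative values with an unadjusted p under 0.05, against 7.87% of all genes, and 1 passed the adjusted threshold. This list and those below were chosen with earlier results of these data known. Their counts beside the share of all genes are therefore descriptions and no independent test. The median log2 fold change was −1.12, against 0.01 over all genes. Chordc1, a cochaperone of Hsp90, fell to 15.3 ± 2.34 CPM in tumor-bearing lungs, against 34.5 ± 7.58 CPM in normal lungs (SD, n = 4 each; log2 fold change −1.27, SE 0.14, edgeR adjusted p = 0.0306). This call was lost without normal lung 6886 or without tumor-bearing lung 6879, 6880 or 6881, fits in which no gene passed. It was also lost in batch 1 alone (−1.30, adjusted p = 0.0526), in batch 2 alone (−1.37, adjusted p = 0.307) and in limma on log2(TPM + 1) (−1.06, adjusted p = 0.111). Hspa8, the constitutive Hsc70 chaperone, was at 131 CPM in tumor-bearing and 329 CPM in normal lungs (−1.34, adjusted p = 0.104). Hspa1b, an inducible Hsp70, was at 61.2 and 264 CPM (−2.17, adjusted p = 0.194). The exception was Hsf1 itself, the transcription factor of the group, at 17.9 CPM in tumor-bearing and 17.7 CPM in normal lungs. The median was −1.30 in batch 1 and all 17 values were negative there. Batch 2 held 1 tumor-bearing lung, so the spread of tumor-bearing lungs was not measured there. The log2 fold change of Hspa8 was −1.63 in batch 1 and smaller in batch 2, at −0.87, whereas Chordc1 was not weaker in batch 2. DESeq2 called 13 of the 17 lower, against 311 of 11623 genes in the whole fit.

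As a group, the tumor-bearing lungs had more Cirbp and less of these chaperones than the normal lungs. Within the groups the libraries did not follow this order. Tumor-bearing lung 6879 had both the highest sum of its group and the most Cirbp. Among normal lungs, the batch 1 library of mouse 6886 had the most Cirbp, at a sum of 3011 CPM. The 17 genes summed to 1151, 1575, 1110 and 977 CPM in tumor-bearing lungs 6877, 6879, 6880 and 6881. In normal lungs they summed to 3011 and 2449 CPM in the batch 1 and batch 2 libraries of mouse 6886, 3504 and 2595 in those of mouse 6888, and 1578 and 2231 in mice 6887 and 6893. The groups did not overlap in this list, chosen with earlier results known, though normal lung 6887 and tumor-bearing lung 6879 nearly met. The share of all genes with every tumor-bearing lung below every normal lung was not computed, so the separation by itself does not mark this list out. The tumors were low in Cirbp with chaperone sums of 3051, 2203 and 2216 CPM, inside the range of normal lungs.

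**Figure D4:**
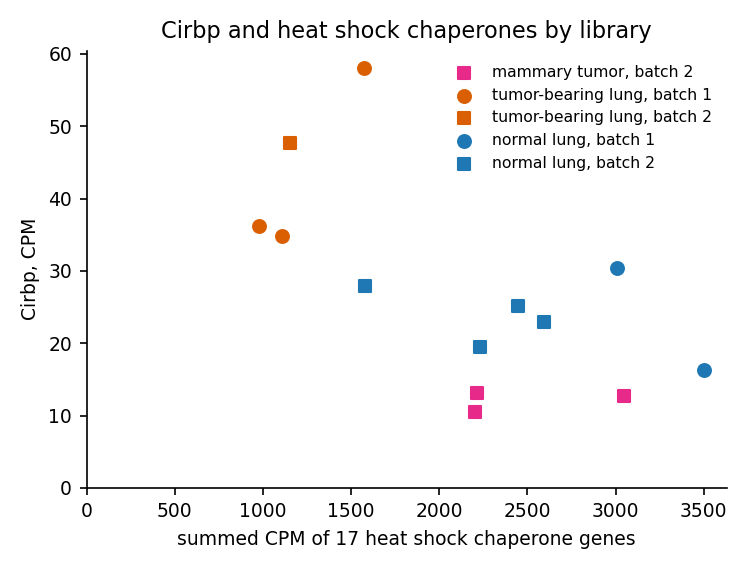
Each point is a library, with the summed CPM of 17 heat shock chaperone genes on the horizontal axis and Cirbp CPM on the vertical axis. Tumor-bearing lungs (orange) lie at sums of 977 to 1575 CPM and above 34 CPM of Cirbp, and normal lungs (blue) at 1578 to 3504 CPM and no more than 30.4 CPM of Cirbp; circles are batch 1 and squares batch 2.

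Splicing regulators that respond to body temperature, the Clk kinases and the SR proteins they phosphorylate, had a median near that of all genes. Of 15 genes, 4 had positive values with an unadjusted p under 0.05, against 6.13% of all genes, and none passed the adjusted threshold in edgeR, against 1 in DESeq2. Over all genes DESeq2 called 134 of 11623 higher and 311 lower. The median log2 fold change was 0.10, and its sign turned in limma on log2(TPM + 1), to −0.40 with the filtered genes at −0.53, and in batch 2 alone, to −0.04. Srsf5, an SR protein, was at 148, 204, 140 and 152 CPM in tumor-bearing lungs 6877, 6879, 6880 and 6881, against 65.5 to 80.6 CPM in the 6 normal lung libraries. These groups were wide apart, and the log2 fold change was 1.12 (SE 0.16, adjusted p = 0.0910; 1.20 in batch 1 and 0.99 in batch 2). Srsf2 was at 0.39 (adjusted p = 0.295) and Srsf6 at 0.31 (adjusted p = 0.323), while the kinase Clk1 was at 0.58 (adjusted p = 0.324). Clk1 was at 0.84 in batch 1, at 0.05 in batch 2 and at −0.10 in limma on log2(TPM + 1).

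**Figure D5:**
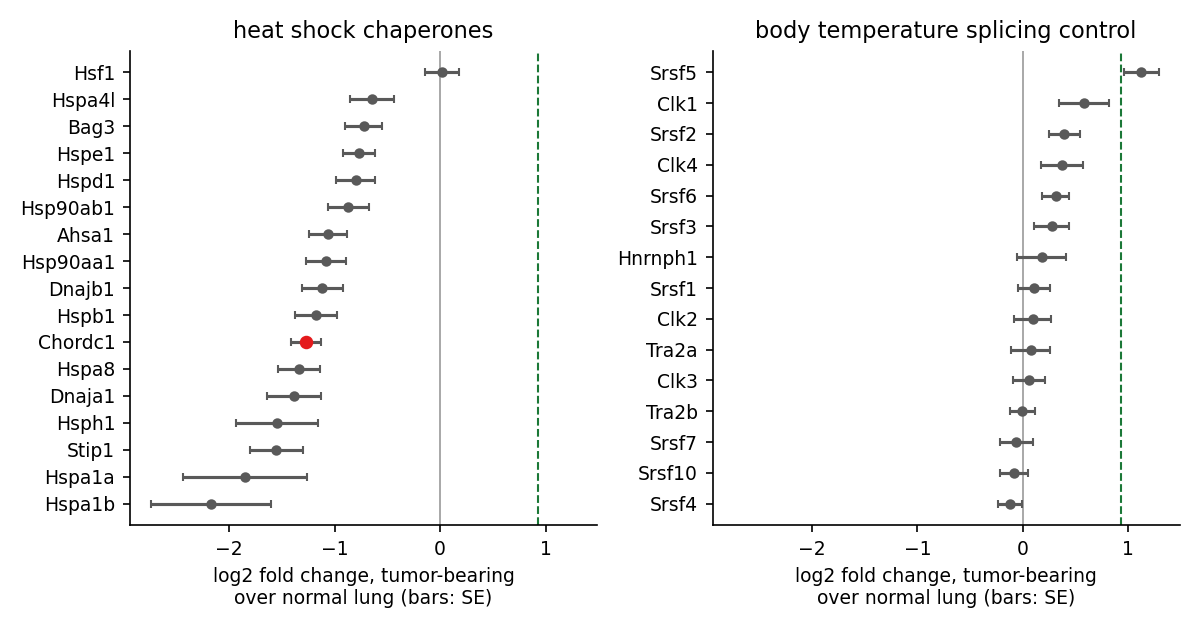
Points are log2 fold changes of tumor-bearing over normal lung with SE bars for 17 heat shock chaperone genes and 15 splicing regulators, red marks an adjusted p under 0.05, and the dashed line is Cirbp at 0.93. In the first list 16 of 17 genes lie left of 0, and in the second Srsf5 alone lies beyond Cirbp.

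Other genes around the 2 proteins gave no call in the lung comparison in edgeR. Of all genes, 6.13% were higher and 7.87% lower at an unadjusted p under 0.05 in edgeR. DESeq2 called 134 of 11623 genes higher and 311 lower. Of 18 circadian clock genes, 1 was positive and 6 were negative at an unadjusted p under 0.05 (median −0.19), led by the output factor Hlf (−1.20, adjusted p = 0.0730), the repressor Cry1 (−1.08, adjusted p = 0.116) and the activator Npas2 (1.88, adjusted p = 0.205), and DESeq2 called 2 lower. Of 13 relatives with RNA recognition motifs, 2 were positive at that p, Rbmx at 0.58 and Hnrnpdl at 0.50, and DESeq2 called none. Of 4 tested proteins with a cold shock domain, 3 were negative at that p, Ybx1 at −0.51, Ybx3 at −0.45 and Carhsp1 at −0.57, and DESeq2 called 2 lower. Among 7 tested mRNAs described as bound by Cirbp or Rbm3, Rpa2, a subunit of the single-strand DNA binding complex, was the 1 positive gene at that p (0.59, adjusted p = 0.252). Among 5 tested components of the receptors for extracellular Cirbp, the coreceptor Cd14 was the 1 (0.49, adjusted p = 0.344), with Tlr4 at 17.5 CPM in tumor-bearing and 17.9 CPM in normal lungs.

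The same lists in tumors were read against shares of 27.2% higher and 25.2% lower of all genes against normal lung, and 22.6% and 23.7% against tumor-bearing lung. The relatives of Rbm3 with RNA recognition motifs were called higher in 9 of 13 against normal lung and in 5 of 13 against tumor-bearing lung. Hnrnpa1 rose to 139 ± 27.4 CPM in tumors, against 43.5 ± 4.78 CPM in normal lungs (log2 fold change 1.69, SE 0.16, edgeR adjusted p = 3.27e-05), while Rbmxl1 and Hnrnpab rose by 1.70 (SE 0.19) and 1.65 (SE 0.14). Msi2 was the 1 relative that fell in both comparisons (−0.59 and −0.58). Of the cold shock domain genes, 2 of 5 tested rose and 1 fell against normal lung, and 2 of 4 rose and none fell against tumor-bearing lung in edgeR. Ybx1 (1.12 against normal and 1.53 against tumor-bearing lung) and Ybx3 (0.92 and 1.36) rose in both, while Carhsp1 fell against normal lung (−0.97) and was at −0.42 (adjusted p = 0.0743) against tumor-bearing lung.

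Splicing regulators rose in 8 of 15 in both tumor comparisons and fell in 2 and 4. Srsf2 rose to 251 ± 29.7 CPM in tumors, against 63.3 ± 9.29 CPM in normal lungs (SD, n = 3 and 4; log2 fold change 2.01, SE 0.17, adjusted p = 1.32e-05 in edgeR). Srsf5, which stood beside Cirbp in the lungs, fell in tumors against tumor-bearing lung (−1.03, SE 0.21, adjusted p = 0.00152) and was at 74.5 to 79.4 CPM in tumors, inside the range of normal lungs. Heat shock chaperones split in tumors. Against normal lung 3 rose, led by the mitochondrial pair Hspe1 (2.28) and Hspd1 (1.63), and 9 fell, led by the small heat shock protein Hspb1 (−3.28). Against tumor-bearing lung 7 rose and 2 fell.

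Clock genes fell in 11 of 18 and rose in 3 of 18 in both tumor comparisons (medians −2.11 against normal and −2.01 against tumor-bearing lung), with the repressor Nr1d1 at 4.17 ± 1.12 CPM in tumors and 122 ± 14.5 CPM in normal lungs (log2 fold change −4.83, SE 0.23, edgeR adjusted p = 7.09e-07). The repressor Bhlhe41 (2.65 against normal and 2.25 against tumor-bearing lung) and the activator Arntl (1.45 and 1.08) rose in both, Nfil3 rose against normal lung (0.75) and Cry1 against tumor-bearing lung (0.69). Of the mRNAs described as bound by the 2 proteins, the redox protein Txn1 (1.46 against normal and 1.52 against tumor-bearing lung), Rpa2 (1.41 and 0.91) and Rtn3 (0.77 and 0.89) rose, and Vegfa fell (−2.33 and −2.58). Cd14 rose (2.76 and 2.42), while the receptors Trem1 (−1.72 and −2.03) and Il6ra (−1.42 and −1.38) fell. Marker sums moved too: adipocyte markers summed to 82.5 to 235 CPM in tumors and 2.25 to 24.3 CPM in lungs, macrophage markers to 351 to 522 CPM in tumors and 139 to 230 CPM in lungs, and endothelial markers to 59.6 to 81.8 CPM in tumors and 1168 to 2661 CPM in lungs. All 12 proliferation genes rose in both comparisons, with Mki67 at 144 ± 32.7 CPM in tumors and 10.1 ± 3.11 CPM in normal lungs. Hypoxia genes rose in 10 and 9 of 12 and fell in 1 of 12 in each comparison, which was Vegfa, given above among the bound mRNAs. The part of proliferation, of low oxygen and of cell makeup in the levels of Rbm3 and Cirbp in tumors was not tested.

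Across the 10 lung libraries of 8 mice, the genes whose pattern was most like Cirbp among 1255 protein-coding genes with a mean of at least 5 TPM were Srsf5 (Pearson r 0.85), Ypel3 (0.76), Itgb6 (0.72), Gm47283 (0.68) and Lars2 (0.67). The measure was the correlation of log2(TPM + 1) after centring on batch means, and libraries share mice and RNA composition. Group means were kept, so a difference between tumor-bearing and normal lungs that a gene shares with Cirbp or Rbm3 enters r. In coding TPM the r values with Cirbp were 0.95, 0.90, 0.79, 0.89 and 0.80. For Rbm3 the nearest genes were Wapl (0.97), Ptprg (0.97), Prr5l (0.97), Atp2a3 (0.96) and mt-Atp8 (0.96), and the order did not hold on the other scale: in coding TPM they were 0.72, 0.20, 0.01, 0.97 and −0.43. The correlation of Cirbp with Rbm3 was 0.05 in TPM and 0.65 in coding TPM, so that it too differed between the scales.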

How the data were processed

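Total RNA was sequenced after ribosomal RNA depletion with single reads of 75 bases, from 100 ng of RNA a library. Salmon (version not given in the sources used here) and DESeq2 1.18.1 are listed per the submitters' processing notes, with mm10 as the build. The authors deposited an estimated count and a TPM value per gene for 13 libraries, quantified with these tools as far as the notes say. The ratio of count to TPM was the same in every library but for 1 factor a library (largest deviation 9.77e-15 on the log2 scale, 10070 genes), so the counts are TPM scaled by a mean length. Counts were rounded. Of 46679 IDs, 46269 were named from GENCODE M21 (GRCm38). No column lacked a sample.

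edgeR 4.0.16 (TMM, filterByExpr, quasi-likelihood) under R 4.3.3 was the main test, with a Benjamini-Hochberg threshold of 0.05 over all genes. Tumor-bearing against normal lung used 8 lungs with a batch term, 1 library a mouse (batch 1 for the 2 repeated mice). Tumor against normal lung used the 8 batch 2 libraries, and tumor against tumor-bearing lung 11 libraries with a batch term. CPM are counts relative to TMM-scaled library sizes. The fits were tested on simulated data that held no difference between batches or in RNA composition, so that test does not cover these. Alternatives used DESeq2 1.42.0, limma 3.58.1 (voom, and log2 TPM with a pseudocount of 1 or 0.1), other scalings and filters, single batches, the mouse as a block and leaving out each library. Estimated counts rest on the depth of each library and precision on the number of mice.

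Tumors and lungs of 3 mice are paired by the mouse number in the labels. Residuals of these pairs correlated across genes at 0.185, 0.0525 and −0.137 for mice 6877, 6880 and 6881. The members and lists were chosen with earlier results of these data known. Genes named are Cirbp and Rbm3, list members past the threshold or, with none, up to 3 with the smallest p, and the 5 genes most like each member; Hspa8, Hspa1b, Hsf1, Clk1 and Tlr4 were added after their values were seen. RNA quality per library is not given in the sources used here.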

Additional observations from a re-analysis of the deposited data

Results flagged for a closer look

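Normal lung 6886 stood apart from the other normal lungs in deposited TPM, with 1 library a mouse. Its Cirbp level was 5.27 TPM, against 2.25 to 2.76 TPM in the other 3 mice, and its Rbm3 level was 5.45 TPM, against 4.81 to 4.88 TPM. For each gene the gap to the nearest mouse exceeded Dixon's 95% critical value for 4 samples. Chance flags about 1 in 20 groups. The library flagged was prepared in batch 1. The batch 2 library of the same mouse had 3.11 TPM of Cirbp and 4.83 TPM of Rbm3, and in CPM neither gene of this mouse was flagged.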

How the results depend on the processing

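Both calls in tumors against normal lung kept their direction and passed the threshold under all 21 alternatives, with log2 fold changes of −1.11 to −0.70 for Cirbp and 2.02 to 2.47 for Rbm3; without 1 library they were −1.10 to −0.88 and 2.19 to 2.47, with 9507 to 10454 genes called. Limma on log2(TPM + 1) and log2(TPM + 0.1) called 3647 and 3655 genes there, against 10708, and 2647 and 2801 (4112 without a filter), against 8471, in tumors against tumor-bearing lung. In that comparison Rbm3 passed under all 26 alternatives, and Cirbp missed the threshold in limma on log2(TPM + 1) without a filter (−0.9996, adjusted p = 0.0603), where more genes were tested. Without 1 library the values were −2.10 to −1.78 and 1.80 to 2.25, with 6444 to 8375 genes called. With the mouse as a replicate block Cirbp was −1.81 (adjusted p = 0.00123) and Rbm3 2.20 (adjusted p = 0.000765), or −1.76 and 2.31 in the 3 paired mice alone, and no call of either gene changed. In tumor-bearing against normal lung Cirbp was 0.90 without a filter and 0.91 in DESeq2, both past the threshold, 0.74 to 1.21 without 1 library, and 0.19 and 0.25 in limma on TPM with pseudocounts of 1 and 0.1. Rbm3 changed sign in limma on TPM (−0.31 and −0.38 with pseudocounts of 1 and 0.1, and −0.31 without a filter), where the median of all genes was −0.53 and −0.75 with a filter and −0.05 without one, so that Rbm3 stood 0.21 and 0.37 above it with a filter but at −0.27 relative to it without one, with the batch 2 library of repeated mice (−0.057) and in batch 2 alone (−0.061), and was 0.23 to 0.53 without 1 library; the cause was not tested. Genes called there numbered 275 without a filter, 445 in DESeq2, 2, 1 and 3 in the limma fits on TPM, 1 without the batch term, 1 with the batch 2 library, 2 with repeats summed, 41 with all 10 lungs in voom, 39 in batch 1 alone and 0 to 221 without 1 library (221 without tumor-bearing lung 6877), against 6. Some settings moved the median of all genes by over 0.1: in tumors against tumor-bearing lung, upper quartile scaling (−0.24) and limma on TPM (0.39 and 0.57 with pseudocounts of 1 and 0.1, and 0.005 without a filter) and batch 2 alone (0.011), against −0.10, and in tumors against normal lung, upper quartile scaling (−0.20), no filter (−0.17), DESeq2 (−0.17) and limma on TPM (0.06 and 0.08), against −0.05. Precision is limited by 3 or 4 mice a group and, for Cirbp in tumors, by 106 to 168 estimated counts a library.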
